A study of Mus musculus with 10 samples.

Results

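The comparison described here is that of the MEK inhibitor alone in Py2T-LT cells. Its members are the 4 RNA-seq libraries whose labels name this line with the inhibitor or as control, 2 in each group, of the 10 libraries of the series. The series asked whether mesenchymal breast cancer cells of the mouse can be turned into fat cells, and its other groups were Py2T-LT cells given bone morphogenetic protein 2 (BMP2) with the inhibitor, and MTΔECad cells, another mesenchymal line, given rosiglitazone or left as controls.

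Py2T-LT cells are the long-term form of Py2T, an epithelial line from a mouse breast tumour that turns mesenchymal under prolonged TGF-β. All libraries were made from cells collected 7 days into treatment. The labels call the treated group meki and state no dose for single samples. By the general protocol the inhibitor was PD98059 at 40 µM, usually present from the start, control cells received medium with DMSO, and cells were plated at 20000 per cm2. The protocol adds rosiglitazone when cancer cells are differentiated, and the Py2T-LT labels do not say whether it was in the medium of either group. Each group is 1 line treated in 2 independent experiments. The p-values rest on the spread between such replicate experiments, shared over all 5 groups of the series and so over both lines.

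MEK is the kinase that switches on ERK, and ERK carries signals of growth factor receptors and integrins to transcription factors of the AP-1 and ETS families. In mesenchymal cells this pathway drives division, migration and matrix remodelling, and it is known to restrain late steps of fat cell formation. PD98059 binds MEK away from its ATP site and hinders its activation by Raf kinases.

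Levels are given in CPM, counts scaled to a library total of 1000000, always with the value of replicate 1 before that of replicate 2. A difference is a log2 fold change, inhibitor minus control, with its standard error. A gene rose or fell where edgeR's quasi-likelihood test gave a Benjamini-Hochberg adjusted p under 0.05 over all 13149 genes tested, and each adjusted p below comes from that test. On this rule 1181 genes rose and 989 fell, which is 16.5% of the genes tested, 8.98% upwards and 7.52% downwards. Most of these differences were small: 331 of the rises and 176 of the falls were past 1 on the log2 scale, and 127 and 30 past 2. The median difference over all genes tested was 0.011. The scaling of the libraries brings this median close to 0, so it cannot show whether most genes shifted together. In bulk RNA a lower level can mean fewer cells of a type or less RNA per cell, and these cannot be told apart. For each of the 179 genes with a value in the text that rose or fell, both inhibitor libraries lay on the same side of both controls. The choice of the largest changes required this, so it is no separate support for the calls. Upwards alone it holds for 28.9% of all genes tested, and the share downwards was not counted. Every list count below is to be read against the shares over all genes tested, 8.98% rising and 7.52% falling. List counts are repeated below with 1 library left out, in the order control replicate 1, control replicate 2, inhibitor replicate 1, inhibitor replicate 2. In that order these fits called 2170, 1448, 1483 and 1455 genes in all, of which 1158, 651, 658 and 593 fell, against 2170 and 989 with all libraries.

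**Figure D1:**
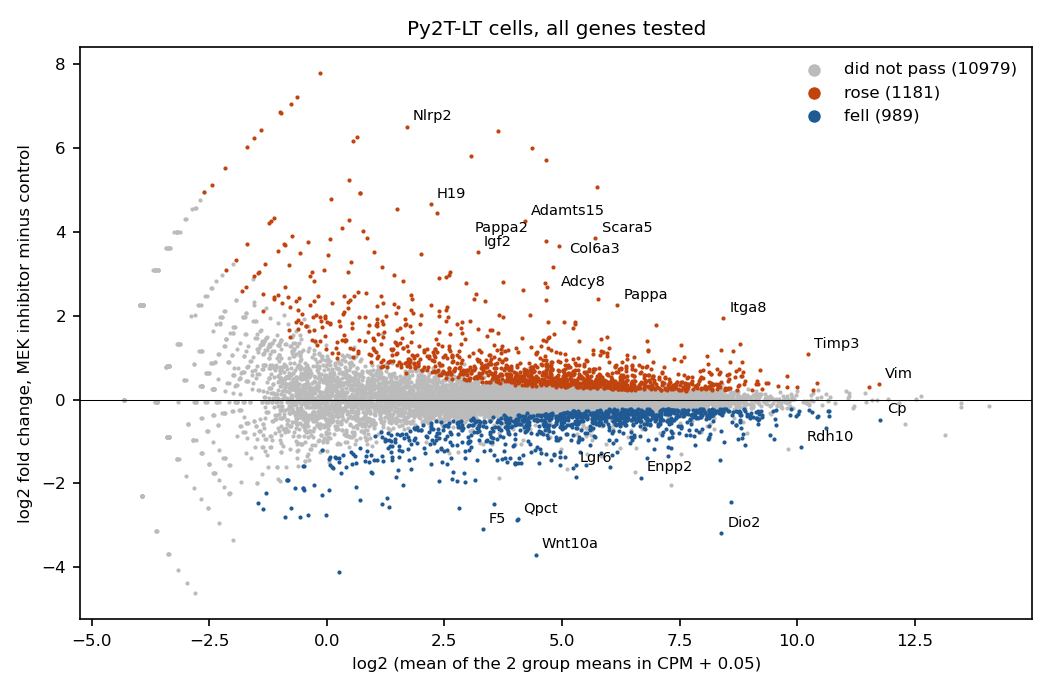
Log2 fold change (inhibitor minus control) against mean level on a log2 scale in CPM, 1 point per gene tested. The 1181 genes that rose and the 989 that fell are coloured, and Dio2 stands out as an abundant gene with a large fall.

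The libraries held 14659987 to 17249199 counts, so 1 count was worth at most 0.07 CPM. Control replicate 2 stood apart from its partner. Of genes with a mean of at least 10 CPM, 46 were more than 2-fold higher in it than in control replicate 1 and none was more than 2-fold lower, against 1 and none in the inhibitor pair. They include Hspg2, Lrp1 and Kmt2d, named after their values were seen. Of the 46 none rose and 2 fell, against 8.98% rising and 7.52% falling over all genes tested. The gap between the controls for which these genes were picked makes a call harder to reach. Control replicate 2 also held 1.747% of its counts in identifiers without a gene name, against 0.411% to 0.959% elsewhere. Fn1, the fibronectin gene, differed between the controls as well: it stood at 4406 and 7696 CPM in controls and 4068 and 3941 CPM with the inhibitor, and its difference of -0.59 ± 0.27 was not called (adjusted p = 0.237), though it was without control replicate 1 (-0.94, adjusted p = 1.6e-06) and without the count filter (7.6e-15). Without control replicate 1 the balance of calls turned, to 1012 rises and 1158 falls.

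Mesenchymal marker genes were expressed in both groups, and so were some epithelial ones. Vim, the intermediate filament gene of mesenchymal cells, stood at 3199 and 2756 CPM in controls and 3986 and 3726 CPM with the inhibitor. It rose by 0.37 ± 0.08, a call lost without control replicate 2 (adjusted p = 0.082). Other mesenchymal markers did not all move with Vim. Prrx1 stood at 29.4 and 34.0 CPM in controls and 55.05 and 65.6 CPM with the inhibitor. Zeb2 stood at 167 and 168.8 against 131.9 and 147.5 CPM, and Cdh2 at 50.95 and 48.3 against 49.49 and 51.0 CPM. Of 25 tested genes of mesenchymal cells or of the epithelial-mesenchymal transition 7 rose and 7 fell, with a median of -0.11. Over all genes tested 8.98% rose and 7.52% fell. Epcam stayed under 1 CPM in the 4 libraries, Esrp1 had no count, and Thy1, also a mesenchymal marker, had no count in 3 of them. Markers of haematopoietic and endothelial cells were low. Of 17 haematopoietic markers 10 have a row in the table used here, 8 of them stayed under 1 CPM in all 4 libraries, and Cd79a and Cd52 had no count. Of 14 endothelial markers 10 have a row, 6 stayed under 1 CPM, and Sox18 had no count. The summed haematopoietic markers gave 12.8 and 10.6 CPM in controls and 9.89 and 8.0 CPM with the inhibitor, and the summed endothelial markers 6.72 and 6.87 against 10.5 and 9.26 CPM. Cd14 made up most of the first sum. None of the 3 haematopoietic markers tested rose or fell, and of the 4 endothelial ones 1 rose. Other marker lists had higher sums in the 4 libraries. Pericyte and preadipocyte markers summed to 1760 to 1850 CPM, mammary luminal genes to 1250 to 1460 CPM, and neuronal and glial markers to 217 to 258 CPM.

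The 3 standard programmes serve here only as background. Of 43 adipocyte genes 28 rose and none fell, of 56 cell cycle genes 35 rose and 2 fell, and of 31 ERK target and feedback genes 5 rose and 4 fell. Of the ERK genes 3, 5, 4 and 3 rose and 3, 3, 3 and 2 fell without 1 library. Among the ERK genes Egr1, an immediate early factor, fell by 1.51 ± 0.21 and Maff by 0.91 ± 0.09, while Jun rose by 1.12 ± 0.10.

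Outside those programmes Dio2 had the second largest fall by the rule that named genes, which asks for at least 5 CPM in the higher group and no overlap. Dio2 encodes the deiodinase that turns the prohormone thyroxine into active thyroid hormone inside the cell (NCBI Gene 13371, chromosome 12, 90724552 to 90739038, GRCm38). Dio2 stood at 581 and 625 CPM in controls and at 62.2 and 69.3 CPM with the inhibitor. Both treated libraries lay far below both controls, with a difference of -3.20 ± 0.09 (adjusted p = 2.03e-15). Genes of retinoid handling moved as well. Rdh10, which makes retinaldehyde from vitamin A, fell from 1435 and 1548 CPM to 673 and 676 CPM, by 1.15 ± 0.07, and had the second largest loss in CPM among the genes called outside the standard lists. Rarb, the retinoic acid receptor beta gene and itself a classic target of retinoic acid, fell by 1.94 ± 0.21, from 10.2 and 11.1 CPM to 3.36 and 2.25 CPM. Crabp1, a binding protein that holds retinoic acid in the cytoplasm, went the other way, from 6.96 and 6.62 CPM to 52.6 and 35.7 CPM, a rise of 2.69 ± 0.18. Its relative Crabp2 stood at 79.7 and 74.4 against 76.3 and 73.1 CPM (adjusted p = 0.81).

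Of 43 tested retinoid, steroid and xenobiotic enzymes and binding proteins, 13 fell and 8 rose. Without 1 library the falls numbered 13, 12, 12 and 11 and the rises 6, 4, 3 and 5. The median difference of the list was 0.00, against 0.011 over all genes. Cyp4b1, a cytochrome P450 that hydroxylates fatty acids and xenobiotics, fell by 2.60 ± 0.24, with 11.8 and 12.2 CPM in controls and 1.55 and 2.35 CPM after treatment. Cyp1a1, a textbook target of the aryl hydrocarbon receptor, was called higher on 27 counts against 2, 12.9 times the control (95% interval for counting error 3.24 to 112), and lost the call without control replicate 2 or inhibitor replicate 1 (adjusted p = 0.083 and 0.051). Its fitted log2 difference was 6.68 without control replicate 1 and 2.63 without control replicate 2. Rdh16 was called on 9 counts against none (at least 1.43-fold higher against 3 counts per library), and the call did not survive the loss of any of the 4 libraries (adjusted p = 0.14, 0.18, 0.1 and 0.13) or DESeq2 (0.055).

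Nuclear receptors, the transcription factors that bind such ligands, changed in 6 cases upwards and 8 downwards among 33 tested, with a median of 0.03. Ppara, the receptor for fatty acids in oxidative tissues, had no count in either control and 39 counts with the inhibitor (at least 6.21-fold higher against 3 counts per library). Nr1h3, the oxysterol receptor LXRα, rose by 2.10 ± 0.39 from 0.616 and 0.312 CPM to 2.13 and 1.92 CPM. Pparg, the master regulator of fat cells, rose by 1.87 ± 0.14. Nr2f1, the orphan receptor COUP-TFI, fell by 1.04 ± 0.10, from 107 and 128 to 55.0 and 58.6 CPM, while its paralogue Nr2f2 stood at 55.6 and 71.7 against 67.9 and 75.6 CPM (adjusted p = 0.324, or 0.039 without control replicate 2). Vdr, the vitamin D receptor gene, was picked after its values were seen: it fell by 0.97 ± 0.08, from 146 and 155 CPM to 79.3 and 73.9 CPM.

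Cyclic AMP (cAMP) is made by adenylyl cyclases, broken down by phosphodiesterases and read by protein kinase A, which acts on CREB family factors at DNA sites called cAMP response elements. Of 32 tested genes of this pathway 9 fell and 5 rose, with a median of -0.06. Adcy8, a calcium-stimulated adenylyl cyclase best known from neurons, rose from 5.42 and 5.81 CPM to 48.7 and 51.8 CPM, by 3.16 ± 0.14 (adjusted p = 6.72e-12). Pde4d, a cAMP-specific phosphodiesterase, fell by 1.17 ± 0.13, from 26.6 and 36.9 to 13.8 and 14.3 CPM. Pde5a, which breaks down cyclic GMP, rose by 1.66 ± 0.19, from 4.31 and 6.37 to 14.9 and 18.7 CPM. So did Pde8a, by 1.88 ± 0.55, though not by DESeq2 (adjusted p = 0.15) or without control replicate 1 (0.22) or inhibitor replicate 2 (0.21), and it was 3.41 without control replicate 2.

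Creb5, a factor of the CREB and ATF group, stood at 12.8 and 25.5 CPM in controls and 6.85 and 7.34 CPM with the inhibitor. It fell by 1.43 ± 0.27, but missed the threshold with only the compared groups fitted (adjusted p = 0.18) and without inhibitor replicate 1 (0.053), and the difference without control replicate 2 was -0.84. Nr4a3, an orphan receptor gene induced by cAMP, fell by 1.75 ± 0.35 from 2.22 and 3.62 to 1.16 and 0.603 CPM. The abundant members Prkacb, Pde7a and Creb1 differed by -0.11 ± 0.07, 0.15 ± 0.09 and -0.07 ± 0.09 and were not called. Without 1 library the 9 falls became 9, 7, 6 and 6, and the 5 rises 4, 4, 4 and 4.

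Of the genes of the circadian clock 7 of 24 fell and none rose, against 7.52% falling over all genes. The median of the list was -0.23, and without 1 library 7, 4, 4 and 4 fell. Per2, which represses its own activators CLOCK and BMAL, fell by 0.62 ± 0.11, from 37.1 and 39.5 CPM to 26.8 and 23.3 CPM. Its partner Per1 fell by 0.68 ± 0.18, from 9.80 and 12.9 CPM to 7.62 and 6.52 CPM, and lost the call without control replicate 2 (adjusted p = 0.17) or inhibitor replicate 2 (0.11). Bhlhe40, another repressor at the same DNA sites, fell by 0.50 ± 0.09, from 145 and 128 to 105 and 88.7 CPM. Clock itself stood at 141 and 155 against 151 and 161 CPM and was not called (adjusted p = 0.578).

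The promoters of 4 fallen genes are printed because they hold a perfect copy of a site that the cAMP or the clock pathway uses, and they were chosen after the windows had been searched. Each is the stretch of 250 bases that ends just before the annotated gene start (RefSeq, GRCm38.p6), written 5′ to 3′ on the gene's strand. Capitals mark the cAMP response element TGACGTCA in the first 3 and the E-box CACGTG, the site of the clock factors, in the last. The positions are chr12:90739039-90739288, minus strand for Dio2; chr6:53287053-53287302, plus strand for Creb5; chr5:91139349-91139598, plus strand for Areg, an EGF receptor ligand gene described below; and chr11:69098699-69098948, plus strand for Per1.
Dio2: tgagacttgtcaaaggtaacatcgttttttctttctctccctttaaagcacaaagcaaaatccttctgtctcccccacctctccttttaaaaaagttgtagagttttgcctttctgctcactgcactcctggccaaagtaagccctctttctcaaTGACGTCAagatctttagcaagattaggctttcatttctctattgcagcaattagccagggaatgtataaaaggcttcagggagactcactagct
Creb5: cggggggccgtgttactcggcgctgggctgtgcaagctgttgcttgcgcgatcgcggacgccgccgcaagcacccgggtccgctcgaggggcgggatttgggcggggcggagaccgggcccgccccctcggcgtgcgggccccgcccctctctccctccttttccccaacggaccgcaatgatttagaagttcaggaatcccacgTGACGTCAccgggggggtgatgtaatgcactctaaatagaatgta
Areg: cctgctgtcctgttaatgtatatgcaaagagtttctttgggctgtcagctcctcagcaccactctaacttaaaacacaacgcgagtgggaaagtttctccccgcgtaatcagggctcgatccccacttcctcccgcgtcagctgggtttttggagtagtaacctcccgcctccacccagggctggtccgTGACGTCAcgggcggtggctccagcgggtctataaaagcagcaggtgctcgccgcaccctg
Per1: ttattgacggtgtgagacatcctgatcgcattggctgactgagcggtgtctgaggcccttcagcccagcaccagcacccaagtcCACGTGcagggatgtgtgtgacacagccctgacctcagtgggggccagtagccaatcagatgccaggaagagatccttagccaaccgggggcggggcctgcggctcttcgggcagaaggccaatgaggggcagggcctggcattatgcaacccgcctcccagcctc
The first letter of the capitals lies 95, 45, 61 and 166 bases before the gene start in that order. Both motifs read the same on either strand, and windows of 250 bases before to 50 after the start were searched. TGACGTCA stands in 1.79% of the 32851 windows in the RefSeq table and in 3.61% of the 10358 tested genes with a window, against 2.34% of the genes that fell and 2.41% of those that rose. CACGTG stands in 7.15% of the windows and 11.7% of tested genes, against 10.5% of the genes that fell and 11.3% of those that rose. So neither motif was more frequent among the changed genes than among those tested, and the 4 sequences describe single genes. Of the fallen cAMP members with a window 2 of 6 held TGACGTCA, and of the fallen clock members 1 of 4 held CACGTG. The other motif, CACGTG, was as frequent among those cAMP members, in 2 of 6, and TGACGTCA stood in 0 of the 4 clock members.

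Wnt proteins are secreted ligands that act through Frizzled receptors and β-catenin, or through other receptors on cell shape, and they oppose fat cell formation. Of 7 Wnt ligand genes tested 4 fell and none rose, with a median of -0.72, and 4 fell in each fit without 1 library. Wnt10a, a ligand that blocks adipogenesis, had the largest fall of all genes named by the rule (NCBI Gene 22409, chromosome 1, 74792019 to 74804176). Its level was 39.2 and 41.3 CPM in controls and 3.55 and 2.68 CPM with the inhibitor, a difference of -3.70 ± 0.15. Wnt5a, the main ligand outside the β-catenin route, fell by 0.65 ± 0.09, from 212 and 239 CPM to 150 and 138 CPM. Wnt7b fell by 0.90 ± 0.09 and Wnt9a by 0.88 ± 0.14, each with no overlap between the groups. Wnt5b stood at 8.99 and 6.50 CPM in controls and 11.6 and 10.5 CPM after treatment, a difference of 0.51 ± 0.18 just short of the threshold (adjusted p = 0.0578). It was called, as higher, without control replicate 1 (adjusted p = 0.017) and without the count filter (0.025).

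Of 15 receptor genes 2 rose and 2 fell, with a median of -0.02. Lgr6, a receptor for R-spondins, which strengthen Wnt signals, fell by 1.64 ± 0.12, from 56.2 and 58.4 CPM to 19.97 and 16.8 CPM. Ror1, a receptor kinase for Wnt5a, fell by 0.61 ± 0.11. Fzd9 rose by 2.04 ± 0.43 but stayed low, at 2.26 and 1.64 CPM, and Fzd5 rose by 0.44 ± 0.10. The readout genes went down where they were called: Tcf7, a nuclear partner and target of β-catenin, fell by 1.23 ± 0.20 and Axin2, its most used target gene, by 0.81 ± 0.18, from 8.19 and 9.37 to 4.39 and 5.53 CPM. These were 2 of 9 tested targets, with none rising. Among secreted Wnt antagonists and R-spondins 3 of 8 rose and 2 fell, or 3, 2, 2 and 1 rises without 1 library. Apcdd1, a Wnt inhibitor that is itself Wnt-induced, fell by 0.96 ± 0.09. Dkk2 rose by 0.70 ± 0.17 and lost its call without control replicate 2, inhibitor replicate 1 or inhibitor replicate 2 (adjusted p = 0.071, 0.06 and 0.054).

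**Figure D2:**
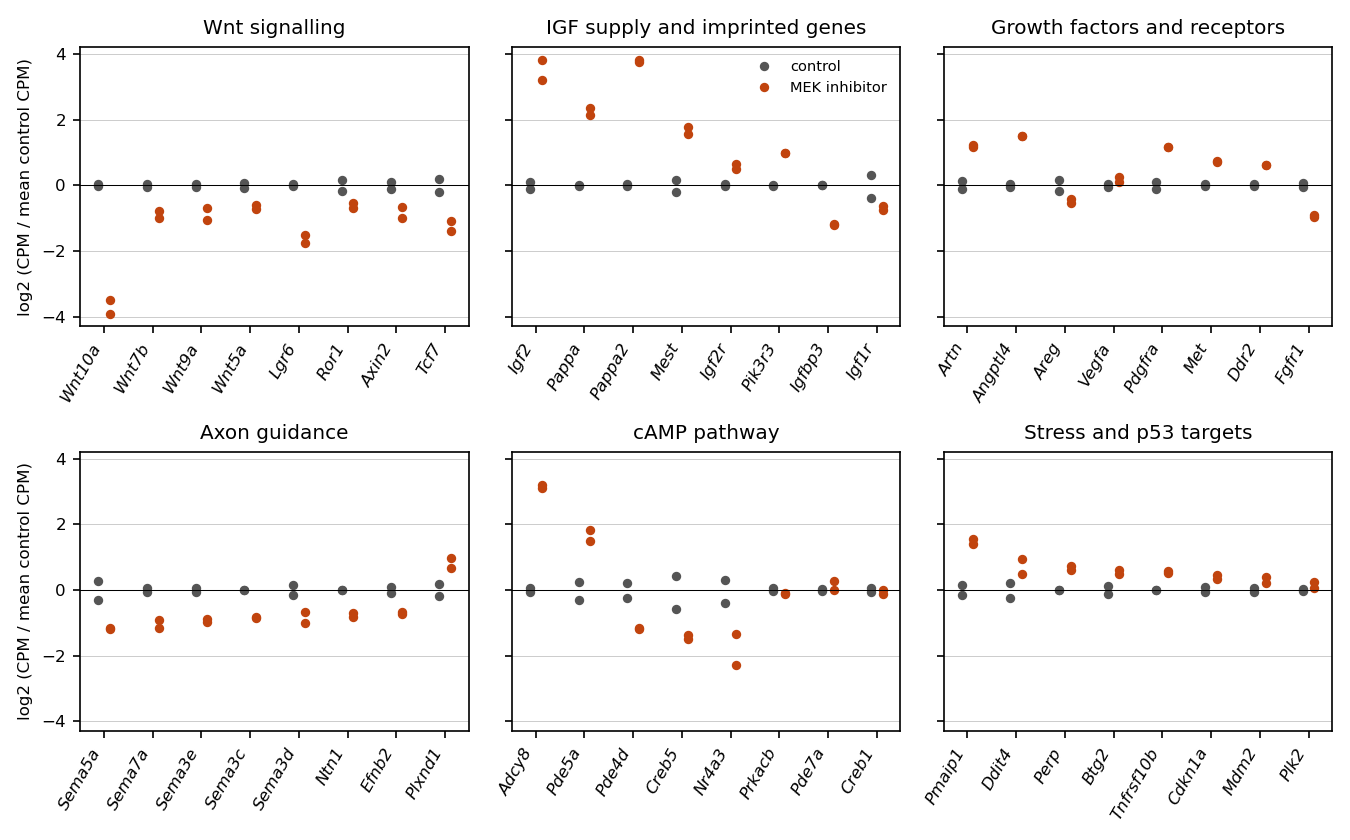
Level of each gene in the 4 libraries relative to the mean of the controls, on a log2 axis, in 6 gene groups. Points are single libraries, grey for control and orange for inhibitor; Wnt10a lies lowest of the genes drawn, and Igf2 and Pappa2 lie highest.

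Insulin-like growth factors (IGFs) are held by binding proteins and freed by the pappalysin proteases, which cut IGFBP-4 and IGFBP-5. Igf2, the fetal growth factor gene (NCBI Gene 16002, chromosome 7, 142650768 to 142666816), rose from 1.35 and 1.56 CPM to 20.3 and 13.6 CPM, by 3.52 ± 0.34 (adjusted p = 0.000141). H19, the imprinted non-coding RNA that neighbours it (NCBI Gene 14955, chromosome 7, 142575530 to 142578146), rose from 0.185 and 0.500 CPM to 7.88 and 9.70 CPM, by 4.66 ± 0.36, or by 5.52 without control replicate 2. Both pappalysin genes rose with them. Pappa went from 25.4 and 24.8 CPM to 128 and 111 CPM, a rise of 2.25 ± 0.13, and Pappa2 from 3.45 and 3.31 CPM to 47.8 and 45.9 CPM, a rise of 3.79 ± 0.18. Of the binding protein genes Igfbp3 fell by 1.20 ± 0.12, from 29.9 and 29.6 to 13.2 and 12.8 CPM. Igf1r, the receptor kinase, read 285 and 456 CPM in controls and 219.9 and 237 CPM after treatment; the control libraries themselves differed, and the gene was not called (adjusted p = 0.084). It was called, as lower, by DESeq2 (adjusted p = 0.023), without the count filter (3.2e-15), and without control replicate 1 (5.7e-08) or control replicate 2 (0.039), where the difference was -0.32.

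Over the insulin and IGF axis 7 of 24 genes rose and 4 fell, with a median of 0.14. Without 1 library 6, 7, 7 and 6 rose and 6, 3, 3 and 2 fell. Pik3r3, a regulatory subunit of PI3 kinase, rose by 0.98 ± 0.12. Among 17 imprinted growth genes 4 rose and 2 fell, with a median of 0.17. Besides Igf2 and H19 the rises were Mest, by 1.67 ± 0.17 from 4.99 and 3.87 to 13.1 and 15.2 CPM, and Igf2r, the receptor that clears IGF2, by 0.57 ± 0.08 from 366 and 351 to 555 and 509 CPM. Other imprinted genes of high level were not called, for example Gnas, at 664 and 683 against 669.5 and 684 CPM (adjusted p = 0.963).

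**Figure D3:**
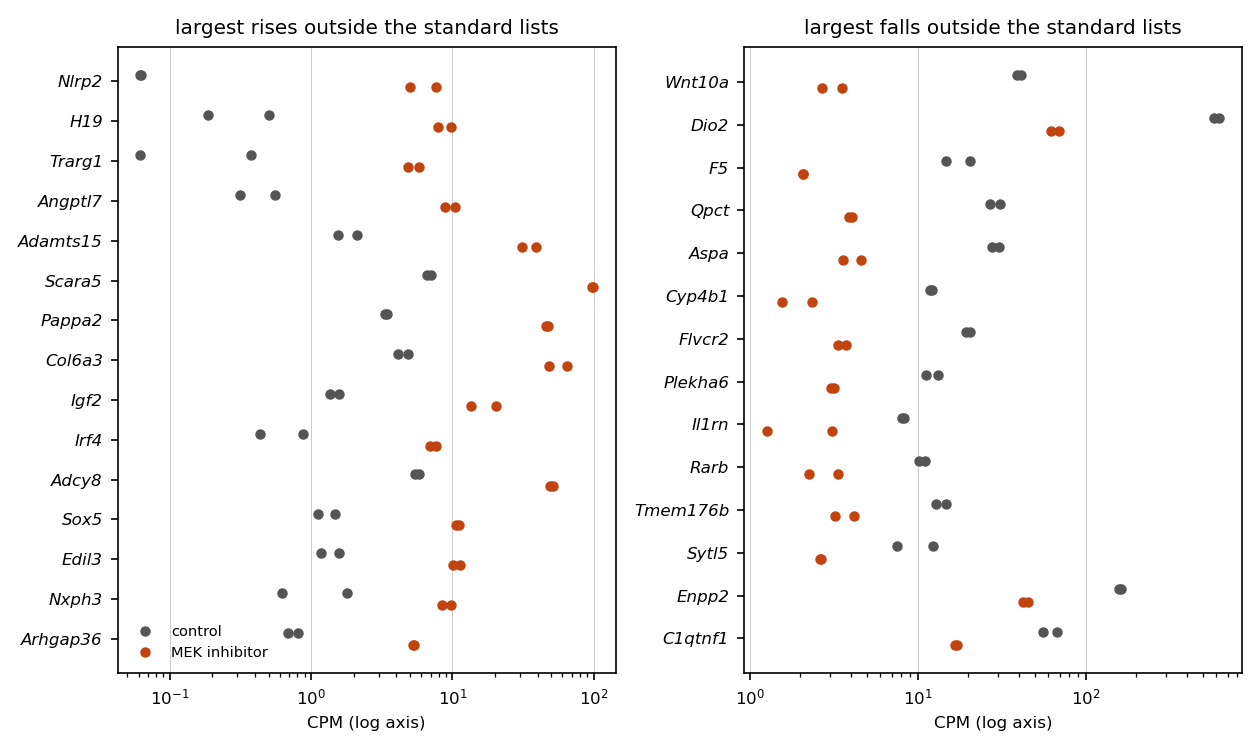
Levels in CPM on a log axis in the control (grey) and inhibitor (orange) libraries for the 15 largest rises and 14 of the 15 largest falls named by the rule. The 2 groups do not overlap for any of the 29 genes drawn, a condition of the naming rule, and Nlrp2 rises from a single count in each control.

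The largest rise by the naming rule was that of Nlrp2, a gene of the NOD-like receptor family, on 217 counts against 2. This was 104 times the control (95% interval for counting error 28.4 to 862). Trarg1, a regulator of glucose transporter traffic in fat cells, rose on 178 counts against 7, 24.3 times the control (95% interval for counting error 11.6 to 61.3), and its log2 difference was 3.79 without control replicate 1 and 6.25 without control replicate 2. Angptl7, a secreted angiopoietin-like protein, rose by 4.45 ± 0.34, from 0.554 and 0.312 CPM to 8.92 and 10.3 CPM. Scara5, a scavenger receptor that takes up ferritin, rose from 7.02 and 6.56 CPM to 97.2 and 98.8 CPM, by 3.85 ± 0.11, and was the most abundant of the 15 after treatment. Irf4, a transcription factor of lymphocytes and of fat cells, rose by 3.47 ± 0.30, from 0.431 and 0.875 to 7.69 and 6.90 CPM. Edil3, an integrin-binding matrix protein, rose by 2.96 ± 0.25. Nxph3, a ligand of neurexins, rose by 2.90 ± 0.30, or by 3.84 without control replicate 1 and 2.33 without control replicate 2. Arhgap36, which antagonises protein kinase A, rose by 2.82 ± 0.32. On the other side Qpct, which caps peptides with pyroglutamate, fell by 2.87 ± 0.16, from 27.1 and 31.0 to 3.88 and 4.05 CPM, and Aspa, which frees acetate from N-acetylaspartate, by 2.84 ± 0.16, from 27.9 and 30.6 to 4.59 and 3.62 CPM.

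Matrix genes changed in both directions. Of 33 collagen genes 8 rose and 6 fell, with a median of 0.24. Col6a3, a chain of the beaded filaments around fat and muscle cells (NCBI Gene 12835, chromosome 1, 90766860 to 90844001), rose from 4.13 and 4.81 CPM to 65.1 and 47.9 CPM, by 3.65 ± 0.26. Col10a1, the collagen of hypertrophic cartilage, was higher on 105 counts against 6, 16.7 times the control (95% interval for counting error 7.43 to 46.6). Col14a1, which organises fibrils, fell by 1.51 ± 0.11, from 25.9 and 25.5 to 8.46 and 9.48 CPM, and Col3a1, the fibrillar collagen of reticular fibres, fell by 1.36 ± 0.25 at 3.39 and 4.75 against 1.94 and 1.26 CPM. The abundant chains Col8a1, Col4a5 and Col4a2 differed by 0.12 ± 0.08, 0.12 ± 0.08 and 0.22 ± 0.11 and were not called, apart from Col4a2 without the count filter (adjusted p = 0.045). Without 1 library the collagen rises became 5, 6, 5 and 7 and the falls 5, 5, 5 and 5.

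Of 48 matrix glycoproteins and proteoglycans 12 rose and 9 fell, with a median of -0.07, opposite in sign to the larger count; without 1 library 12, 9, 8 and 12 rose and 13, 7, 9 and 6 fell. Dcn, the small proteoglycan decorin, fell by 1.37 ± 0.13, from 43.3 and 45.5 CPM to 16.9 and 17.6 CPM, while Bgn, its close relative biglycan, rose by 2.31 ± 0.38, from 0.308 and 0.375 to 1.81 and 1.64 CPM. Thbs2, an inhibitor of angiogenesis, fell by 1.61 ± 0.09, from 97.4 and 96.9 to 33.9 and 29.8 CPM; Thbs1 stood at 2172 and 2131 against 2320 and 2210 CPM and was not called (adjusted p = 0.626). Sparcl1 rose by 1.85 ± 0.12 and Fbln5, an elastic fibre protein, by 1.39 ± 0.12.

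Metalloproteases and their inhibitors had the second highest share of changed genes of the lists counted, 69.0% against 16.5% over all genes tested. Of 29 genes 13 rose and 7 fell, with a median of -0.01. Without 1 library 12, 9, 12 and 9 rose and 6, 6, 5 and 5 fell. Adamts15, a protease that cuts the large proteoglycans, rose from 1.54 and 2.12 CPM to 39.1 and 31.2 CPM, by 4.25 ± 0.18. Adam12, a marker of mesenchymal progenitors, rose by 2.48 ± 0.23, from 0.863 and 1.19 to 6.20 and 5.37 CPM, Adam8 by 1.46 ± 0.16, and Adamts16 by 3.03 ± 0.47 on 79 counts against 9. Inhibitor genes rose too: Timp3, the matrix-bound tissue inhibitor, went from 772 and 772 CPM to 1572 and 1692 CPM, by 1.08 ± 0.07, and Timp2 from 1162 and 1199 CPM to 1569 and 1547 CPM, by 0.40 ± 0.07. The protease Mmp14 stood at 96.7 and 106 against 93.6 and 91.0 CPM and was not called (adjusted p = 0.288). In the plasminogen system Plau and Plat, the genes of the activators uPA and tPA, fell by 0.88 ± 0.09 and 0.79 ± 0.08, from 67.9 and 64.8 to 38.6 and 33.7 CPM and from 118 and 104 to 67.1 and 62.0 CPM.

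Integrins link cells to this matrix. Itga8, whose product pairs with the β1 chain and binds nephronectin and fibronectin, rose from 148 and 136 CPM to 548 and 539.6 CPM, by 1.93 ± 0.08. Itgb4 and Itga6, which together form the laminin receptor of hemidesmosomes, rose by 0.77 ± 0.08 and 0.44 ± 0.07. Itgb1, the common β chain, fell by 0.34 ± 0.07, from 1188 and 1138 to 924 and 917 CPM. Of 18 integrin genes 4 rose and 3 fell, with 3, 1, 2 and 1 falls without 1 library. Of 9 laminin genes 4 fell, with 2, 4, 2 and 1 falls without 1 library. The count of rises was 1, and 0, 0, 0 and 0 without 1 library. Lama4 fell by 0.53 ± 0.10, from 39.5 and 38.1 to 29.1 and 24.6 CPM. The fall of Lama5, by 0.90 ± 0.21, was not called with only the compared groups fitted (adjusted p = 0.12) or without inhibitor replicate 1 or 2. Its difference ran from -1.15 to -0.58 over the alternative fits.

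Semaphorins are secreted or membrane proteins that steer axons, vessels and migrating cells through plexins and neuropilins. Of 28 genes of these families 12 fell and 2 rose, with a median of -0.29, and without 1 library 13, 9, 10 and 7 fell. Over all genes tested 7.52% fell and 8.98% rose. Sema7a, a membrane-anchored ligand of β1 integrins, fell from 94.7 and 87.3 CPM to 48.5 and 40.6 CPM, by 1.03 ± 0.11. Sema3c fell by 0.84 ± 0.08, from 181 and 179 to 98.7 and 102 CPM, Sema3e by 0.92 ± 0.10, from 42.3 and 39.4 to 22.3 and 20.9 CPM, and Sema3d by 0.82 ± 0.15. Sema5a fell by 1.18 ± 0.15, a call lost with only the compared groups fitted (adjusted p = 0.067). Sema3a, the best studied ligand of the family, did not share the fall: it stood at 203 and 197 CPM in controls and 214 and 256 CPM with the inhibitor (adjusted p = 0.0923), and was called higher without inhibitor replicate 1 (0.023) or the count filter (0.035). Plxnd1, the receptor of Sema3e, rose by 0.82 ± 0.12, from 21.9 and 28.2 to 48.9 and 39.7 CPM. Among ephrins, netrins and slits with their receptors 5 of 23 rose and 5 fell, and the rises became 3, 3, 1 and 3 without 1 library. Ntn1, the guidance factor netrin-1, fell by 0.77 ± 0.09, from 301 and 306 to 185 and 170.5 CPM, and Efnb2, the arterial ephrin, by 0.70 ± 0.08, from 294 and 329 to 188 and 195 CPM.

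Receptor tyrosine kinases feed the pathway that MEK belongs to. Of 22 tested 6 rose and 6 fell, with a median of -0.10, and without 1 library the falls numbered 6, 3, 3 and 2 and the rises 5, 5, 5 and 5. Pdgfra, the PDGF receptor that marks mesenchymal progenitors (NCBI Gene 18595, chromosome 5, 75151322 to 75198206), rose from 221 and 190.5 CPM to 465 and 466 CPM, by 1.18 ± 0.08. Met, the receptor of hepatocyte growth factor, rose by 0.72 ± 0.07, from 334 and 323 to 534 and 552 CPM, and Ddr2, a collagen receptor, by 0.62 ± 0.10. Fgfr1, the main FGF receptor of mesenchyme, fell by 0.94 ± 0.10, from 538 and 582 CPM to 301 and 285 CPM.

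Growth factor ligand genes rose in 10 and fell in 6 of 38 cases, with a median of 0.07 and 5, 4, 5 and 3 falls without 1 library. Artn, a neurotrophic factor of the GDNF family, rose by 1.19 ± 0.16, from 9.43 and 8.00 to 19.6 and 20.3 CPM, and Angptl4, a secreted inhibitor of lipoprotein lipase, rose from 33.6 and 31.4 to 91.7 and 92.2 CPM. Among ligands of the EGF receptor Areg, whose promoter is shown above, fell from 29.3 and 22.9 CPM to 19.6 and 17.9 CPM, by 0.48 ± 0.14, and lost the call without control replicate 1 (adjusted p = 0.22) or inhibitor replicate 2 (0.14). Hbegf and Tgfa, named after their values were seen, fell by 0.97 ± 0.11 and 0.42 ± 0.10, from 97.9 and 88.8 to 49.5 and 45.8 CPM and from 36.5 and 39.0 to 29.7 and 26.9 CPM, and Tgfa was not called without control replicate 2 or inhibitor replicate 2 (adjusted p = 0.075 and 0.11). Ereg and Btc, picked likewise, differed by -0.17 ± 0.09 and -0.17 ± 0.12 and were not called. Vegfa, the vessel growth factor gene, stood at 139 and 131 against 144 and 162 CPM (adjusted p = 0.177).

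Of 60 Ras, MAP kinase and PI3 kinase components 10 fell and 4 rose, with 11, 8, 6 and 7 falls and 5, 4, 4 and 3 rises without 1 library. Mapk13, the p38δ kinase gene, fell by 0.97 ± 0.16 and Dusp9, an ERK phosphatase gene, by 0.77 ± 0.18. Rasd1, a small G protein induced by glucocorticoids, was higher on 75 counts against 4, 17.9 times the control (95% interval for counting error 6.71 to 67.5). Rps6ka3, the gene of RSK2, a kinase directly below ERK, fell by 1.39 ± 0.32. Its call was lost with only the compared groups fitted (adjusted p = 0.25) and without inhibitor replicate 1 or 2. Over the alternative fits its difference ran from -1.79 to -0.86.

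TGF-β, activin and BMP ligands and their antagonists numbered 26, of which 5 rose and 6 fell, with 4, 3, 3 and 4 rises and 4, 6, 5 and 4 falls without 1 library. Fstl3, an activin trap, fell by 1.40 ± 0.12, from 21.5 and 21.8 to 8.27 and 8.11 CPM, while Inhbb, an activin subunit, rose by 1.22 ± 0.10, from 15.2 and 15.8 to 38.2 and 34.1 CPM. Gdf11 fell by 0.96 ± 0.12 and Tgfb1 by 0.97 ± 0.20. Bmp4 stood at 49.7 and 44.4 against 51.0 and 51.0 CPM and was not called (adjusted p = 0.431). In the hedgehog pathway the co-receptors split: Boc and Gas1 rose by 1.80 ± 0.16 and 1.11 ± 0.08, from 2.65 and 3.31 to 11.3 and 9.59 CPM and from 38.9 and 40.3 to 88.0 and 82.8 CPM, and Cdon fell by 0.82 ± 0.08, from 536 and 649 to 324 and 349 CPM. Of 22 YAP and TEAD targets 7 fell and 1 rose, with a median of -0.10, but without 1 library 7, 3, 3 and 4 fell and 1, 3, 1 and 1 rose, so that rises and falls were equal in number without control replicate 2. Ccn2, the matricellular protein used most as a readout, fell by 0.45 ± 0.07, from 649.8 and 647 to 468 and 485 CPM.

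Components of complement and coagulation, made by stromal as well as liver cells, fell in 7 and rose in 2 of 27 cases, with a median of -0.15 and 7, 6, 8 and 6 falls without 1 library. C3, the central complement protein, rose from 16.1 and 18.3 CPM to 67.8 and 53.3 CPM, by 1.81 ± 0.13. F5, coagulation factor V, fell from 14.7 and 20.6 CPM to 2.07 and 2.08 CPM, by 3.08 ± 0.23. C1s1, a protease of the first complement component, fell by 0.55 ± 0.08. C1qtnf1, which shares a fold with C1q and is counted here for that reason, fell by 1.86 ± 0.12, from 55.9 and 67.9 to 16.8 and 17.2 CPM.

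Cytokine genes divided evenly, with 11 rising and 12 falling of 52, and with 9, 10, 11 and 7 rises and 9, 9, 10 and 6 falls without 1 library. Il1rn, the natural antagonist of interleukin-1, fell by 1.95 ± 0.26, from 8.07 and 8.31 to 3.10 and 1.26 CPM, and the difference was -2.69 without inhibitor replicate 1 and -1.40 without inhibitor replicate 2. Il18r1, a receptor chain for interleukin-18, rose by 1.76 ± 0.29, and Tnfrsf11b, the decoy receptor osteoprotegerin, by 1.17 ± 0.17, from 7.46 and 9.62 to 18.7 and 19.6 CPM. Cxcl16, a membrane-bound chemokine, fell by 1.31 ± 0.14, from 41.8 and 38.7 to 15.3 and 17.0 CPM, while Cx3cl1 rose by 0.69 ± 0.08. Interferon response genes changed in both directions, 4 up and 5 down of 44, which is close to the share over all genes. Without 1 library 3, 3, 4 and 2 rose and 4, 4, 4 and 2 fell. The guanylate-binding protein genes Gbp3 and Gbp9 fell by 0.67 ± 0.13 and 0.48 ± 0.08, and Ifit2 rose by 0.56 ± 0.11; both families hold near-identical copies, so these values are uncertain.

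Genes known as p53 targets rose in 14 of 29 cases and none fell, against 8.98% rising over all genes, and the median was 0.32. Without 1 library 10, 9, 11 and 9 rose, and 1 fell without control replicate 1. Pmaip1, which encodes the death protein NOXA, rose by 1.47 ± 0.26, from 1.42 and 1.75 CPM to 4.13 and 4.66 CPM. Perp, a desmosome protein needed for p53-driven death, rose by 0.67 ± 0.07, from 361 and 358 CPM to 544 and 596 CPM. Mdm2, the ligase that destroys p53, had the third largest gain in CPM among the genes called outside the standard lists, from 2735 and 2543 CPM to 3065 and 3461 CPM. The step was small, at 0.31 ± 0.08, and its call was lost without control replicate 2 (adjusted p = 0.11) or inhibitor replicate 2 (0.18). Ddit4, a brake on mTOR, rose by 0.73 ± 0.17 and was not called with only the compared groups fitted (adjusted p = 0.18). Trp53inp1 and Plk2 stood at 228 and 259 against 254 and 305 CPM and 186 and 197 against 197 and 225 CPM and were not called (adjusted p = 0.32 and 0.324).

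Inhibitors of cyclin-dependent kinases rose in 4 of 10 cases, with 2, 4, 2 and 2 rises without 1 library. Cdkn2b, the p15 gene, rose by 0.52 ± 0.09, from 104 and 93.5 CPM to 150.5 and 133 CPM. Cdkn1a, the p21 gene, is both a p53 target and a CDK inhibitor and rose by 0.41 ± 0.11, from 27.5 and 30.6 CPM to 36.8 and 40.1 CPM; it was not called without control replicate 1 or inhibitor replicate 2 (adjusted p = 0.11 and 0.15). Cdkn1b, the p27 gene, stood at 160.4 and 157 against 169 and 184 CPM (adjusted p = 0.198). Replication-dependent histone genes, used in S phase, rose in 10 of 54 cases with none falling, and 32 were higher in both inhibitor libraries than in both controls, which holds for 28.9% of all genes tested. Their median was 0.40, and without 1 library 14, 5, 5 and 15 rose. H1f5, a linker histone gene, rose by 0.56 ± 0.09, from 82.4 and 67.2 to 114 and 106 CPM. Histone genes are near-identical copies, so the count per gene is uncertain.

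Transcription factors of embryonic patterning rose in 13 of 57 cases and fell in 2, with a median of 0.00. Without 1 library 9, 10, 12 and 8 rose and 8, 2, 0 and 0 fell, so the imbalance was lost without control replicate 1. Sox5, a cartilage and neural crest factor, rose by 3.04 ± 0.29, from 1.48 and 1.12 CPM to 11.1 and 10.5 CPM. Lmo2, a bridging factor of blood and vessel development, rose by 2.96 ± 0.35, from 0.678 and 0.500 to 5.17 and 4.16 CPM. Dlx2, a homeobox factor of forebrain and jaw development, rose by 1.36 ± 0.26, from 1.66 and 1.56 to 3.94 and 4.33 CPM. None of the 10 Hox genes tested rose or fell under edgeR's test; Hoxb3, the most abundant, stood at 9.06 and 9.37 against 6.53 and 7.39 CPM.

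Markers of pericytes and preadipocytes, the perivascular cells that give rise to fat, rose in 7 of 13 tested cases and fell in 3, with 4, 6, 4 and 4 rises without 1 library. The shares over all genes tested were 8.98% rising and 7.52% falling. Zfp521, a factor that holds cells in the immature state, rose by 1.88 ± 0.21, from 2.71 and 2.19 CPM to 9.05 and 8.98 CPM. Zfp423, which commits preadipocytes, rose by 1.74 ± 0.52, from 0.185 and 0.625 to 1.29 and 1.42 CPM, and was not called without control replicate 1, inhibitor replicate 1 or inhibitor replicate 2 (adjusted p = 0.19, 0.079 and 0.14); without control replicate 2 its difference was 2.83. Mcam, the pericyte antigen CD146, rose by 1.04 ± 0.21, from 2.90 and 5.31 to 8.66 and 8.22 CPM, or by 0.66 without control replicate 1. Ccn5, a secreted factor of preadipocytes, fell by 0.91 ± 0.08, from 612 and 582 CPM to 335 and 302 CPM. The summed level of the list was 1850 and 1800 CPM in controls and 1760 and 1760 CPM with the inhibitor.

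Junction genes changed in both directions, 8 up and 10 down of 38, with 6, 6, 6 and 8 rises and 10, 9, 8 and 8 falls without 1 library. Cdh1, E-cadherin, fell by 1.52 ± 0.15, and the claudin genes Cldn4 and Cldn3 fell by 1.73 ± 0.23 and 1.45 ± 0.36, the latter not called without inhibitor replicate 2 (adjusted p = 0.11). Pkp1, a desmosomal plaque protein of stratified epithelia, rose by 1.55 ± 0.12, from 14.97 and 13.8 CPM to 42.3 and 42.2 CPM, and Grhl1, a desmosome regulator, by 1.37 ± 0.24. Krt8 and Krt18, the abundant keratin pair of simple epithelia, stood at 228 and 210 against 274 and 234 CPM and 403 and 375 against 364 and 322 CPM and were not called (adjusted p = 0.0908 and 0.159), except Krt8, as higher, without inhibitor replicate 2 (0.03). Among other adhesion molecules 8 of 29 fell and 3 rose, with 11, 7, 6 and 7 falls without 1 library. L1cam fell by 1.48 ± 0.15, from 19.3 and 22.2 to 8.08 and 6.79 CPM, and Vcam1, the adhesion molecule for leukocytes, rose by 2.14 ± 0.21, from 1.35 and 1.12 to 6.14 and 4.93 CPM.

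**Figure D4:**
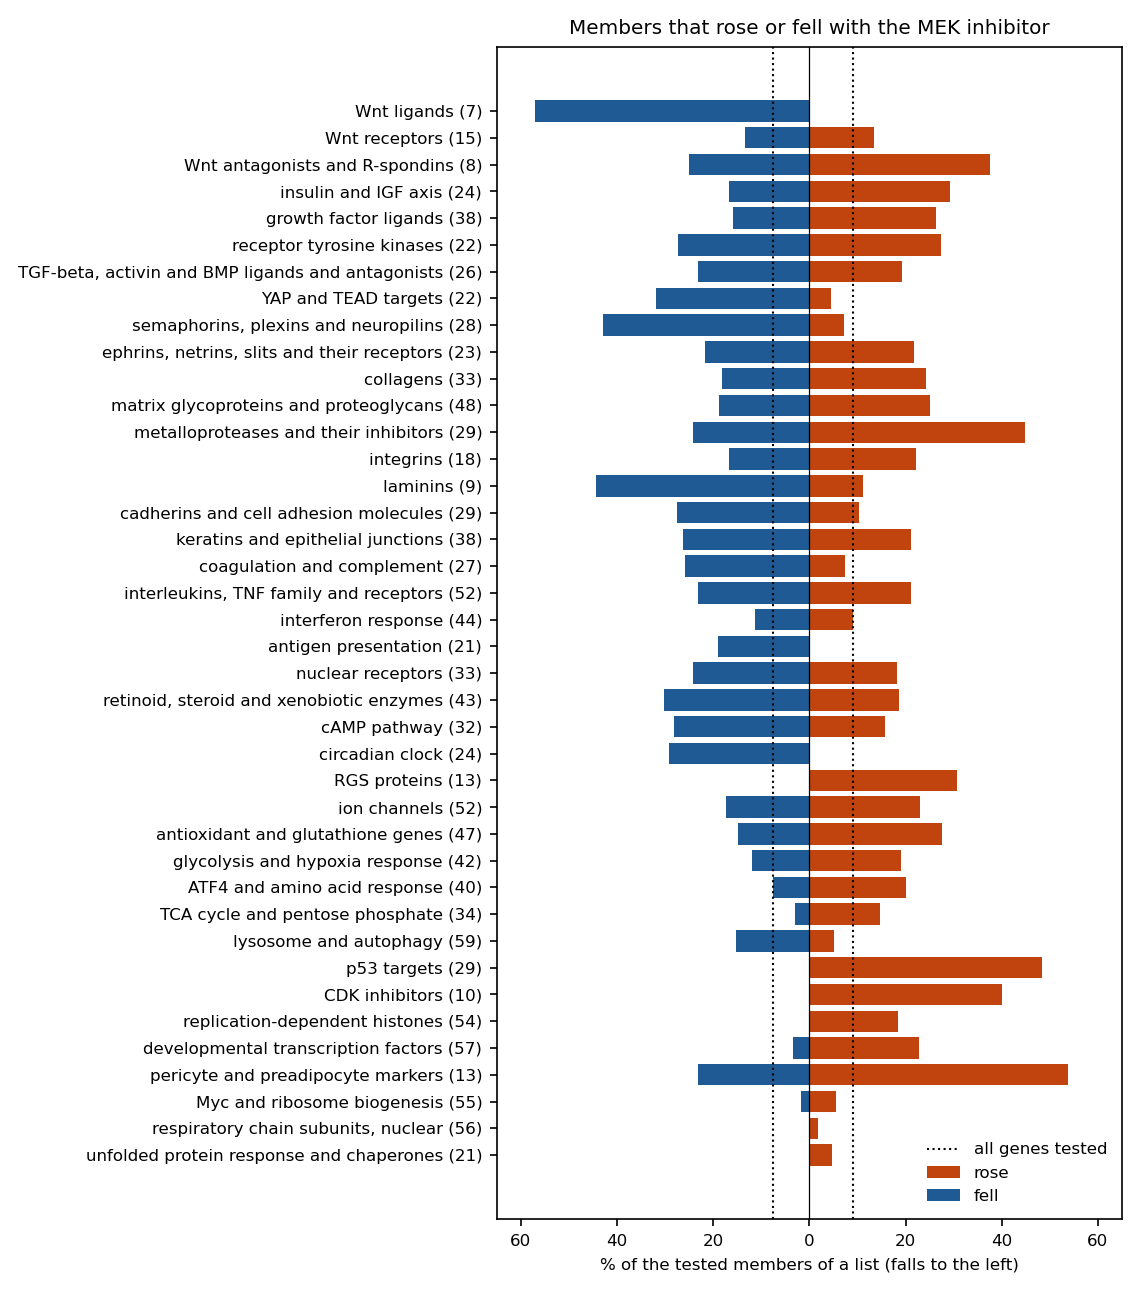
Share of the tested members that rose (right, orange) or fell (left, blue) in each of 40 gene lists, in percent, with the number tested in parentheses. Dotted lines give the shares over all genes tested, 8.98% upwards and 7.52% downwards; short lists move by large steps.

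Antioxidant and glutathione genes rose in 13 of 47 cases and fell in 7, with 14, 10, 8 and 13 rises and 5, 7, 6 and 4 falls without 1 library. Mgst1, a membrane glutathione transferase, rose by 1.18 ± 0.09, from 16.1 and 17.2 CPM to 37.0 and 38.3 CPM. Nqo1, a quinone reductase, rose by 1.16 ± 0.23, from 4.62 and 2.87 to 8.98 and 7.83 CPM, and Cbr2, a carbonyl reductase, by 1.99 ± 0.26. Txnrd1, which recycles thioredoxin, stood at 343 and 347 against 332 and 341 CPM (adjusted p = 0.806). Among iron genes Cp, the ferroxidase ceruloplasmin, had the largest loss in CPM among the genes called outside the standard lists, from 4026 and 4140 CPM to 2919 and 2927 CPM, a fall of 0.48 ± 0.08. Steap3, a ferrireductase of endosomes, rose by 1.01 ± 0.08, from 64.3 and 58.9 to 126 and 122 CPM, and Lcn2, which binds iron carriers of bacteria, by 1.11 ± 0.12. Flvcr2, a membrane transporter, fell by 2.50 ± 0.19, from 19.5 and 20.6 to 3.75 and 3.34 CPM.

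In lipid signalling Enpp2, the secreted enzyme autotaxin that makes lysophosphatidic acid, fell from 158 and 163 CPM to 42.6 and 45.4 CPM, by 1.87 ± 0.09, while Lpar1, a receptor for its product, rose by 0.84 ± 0.09, from 32.0 and 31.0 to 56.8 and 56.0 CPM. Ptgs2 and Ptgs1, the cyclooxygenase genes, rose by 0.86 ± 0.10 and 0.72 ± 0.08, from 196 and 193 to 326 and 379 CPM and from 69.7 and 66.4 to 118 and 107 CPM. Ptger4, a prostaglandin E2 receptor that raises cAMP, fell by 0.83 ± 0.11, and Ptgfr, the prostaglandin F receptor, rose by 1.97 ± 0.38. Ephx2, which clears epoxides of fatty acids, rose by 2.36 ± 0.15, from 3.27 and 3.44 to 18.5 and 16.0 CPM. Acsl4, which activates arachidonic acid for membrane lipids, had the third largest loss in CPM among the same genes, from 1783 and 2080 CPM to 1163 and 1250 CPM, by 0.68 ± 0.09. Sptlc3, a subunit of the first enzyme of sphingolipid synthesis, had no count in controls and 59 with the inhibitor (at least 9.40-fold higher against 3 counts per library).

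Further genes named by the rule had no count in controls. They were Mfng, a Notch-modifying sugar transferase, on 35 counts (at least 5.57-fold), and Slc44a3, a choline transporter-like gene, on 17 counts (at least 2.71-fold). Each bound is set against 3 counts per library and covers counting error only.

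In central metabolism Pcx, pyruvate carboxylase, rose by 1.85 ± 0.13, from 14.97 and 13.5 CPM to 56.8 and 45.9 CPM, and Idh1, a cytosolic source of NADPH, by 0.55 ± 0.08, from 178 and 175 to 275 and 241 CPM. Slc16a1, the lactate carrier, fell by 0.59 ± 0.08, and Car9, a hypoxia-induced carbonic anhydrase, rose by 2.21 ± 0.28, from 1.17 and 0.812 to 5.04 and 4.22 CPM. Of 42 glycolysis and hypoxia genes 8 rose and 5 fell, or 5, 5, 6 and 4 rises and 5, 3, 3 and 3 falls without 1 library. Of 40 genes of the ATF4 and amino acid response 8 rose and 3 fell, or 6, 2, 7 and 4 rises and 4, 3, 3 and 2 falls without 1 library. Slc1a5, the glutamine carrier, rose by 1.26 ± 0.16, from 11.5 and 12.2 to 33.3 and 23.7 CPM, and Slc7a5, the leucine carrier, fell by 0.67 ± 0.09, from 224 and 231 to 149 and 137 CPM. Slc5a3, the inositol carrier, was among the 6 largest gains in CPM of called genes outside the standard lists, from 650.1 and 781 to 1057 and 1043 CPM.

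Ion channel genes changed in 12 cases upwards and 9 downwards of 52, with 10, 9, 6 and 9 rises without 1 library. Scn7a, a sodium channel gene of glia, fell by 2.39 ± 0.41, from 2.53 and 2.81 to 0.452 and 0.548 CPM. Kcnk3, a background potassium channel, rose by 2.21 ± 0.28, from 1.79 and 2.31 to 11.6 and 7.50 CPM. RGS proteins, which end G protein signals, rose in 4 of 13 cases and none fell, against 8.98% rising and 7.52% falling over all genes. Rgs2 went from 87.9 and 82.9 CPM to 151 and 166 CPM, a rise of 0.89 ± 0.08, and Rgs17 rose by 0.91 ± 0.11. Oxtr, the oxytocin receptor of myoepithelium, rose by 2.02 ± 0.19, from 1.85 and 1.25 to 6.59 and 6.08 CPM.

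Several housekeeping programmes held few changed genes. Of 56 nuclear genes for respiratory chain subunits 1 rose and none fell, with a median of 0.08. Of 55 Myc and ribosome biogenesis genes 3 rose and 1 fell, with a median of 0.12, and of 21 chaperones and unfolded protein response genes 1 rose, with a median of -0.01. These shares lie below the 16.5% over all genes. Of the Myc and ribosome genes 28 were higher in both inhibitor libraries than in both controls, and 5 were lower. For the respiratory chain these numbers were 20 and 2, and for the chaperone list 5 and 4. Over all genes tested 28.9% were higher, and the share that was lower was not counted, so the lower numbers have no share to be set against. Among the 1.5-fold changes put into simulated data of this design 82.1% were recovered, so smaller steps can be missed. The simulation gave every gene the same spread and held no deviating control.

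The level under the inhibitor can be set beside that with BMP2 added to it. This second comparison shares the 2 inhibitor libraries with the first, so the values are only placed side by side; it called 4908 genes by the same test, 37.3% of those tested, 17.9% upwards and 19.4% downwards. Dio2 went further down, to 9.57 and 8.72 CPM with BMP2 and the inhibitor, -2.85 ± 0.11 against the inhibitor alone. Rarb also did, to 0.134 and 0 CPM (adjusted p = 1.11e-07). Crabp1 and Adcy8, raised by the inhibitor, were lower with BMP2, Crabp1 at 1.74 and 0.988 CPM and Adcy8 at 9.51 and 9.30 CPM (adjusted p = 1.4e-11 and 1.63e-11). Angptl7 was back near its control level, at 0.603 and 0.349 CPM. Igf2 and Nlrp2 were higher still, Igf2 at 47.0 and 35.9 CPM and Nlrp2 at 14.3 and 14.6 CPM (adjusted p = 0.00119 and 5.17e-05). Wnt10a stood at 1.67 and 2.44 CPM and did not pass against the inhibitor alone (-0.57 ± 0.23, adjusted p = 0.0533), and neither did Itga8, at 634 and 566 CPM (0.14 ± 0.07, adjusted p = 0.143).

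Rosiglitazone in MTΔECad cells shares no library with the inhibitor comparison. It called 1046 rises and 691 falls, 13.2% of the genes tested, 7.95% upwards and 5.26% downwards. Both agents raised 259 genes, which is 21.9% of the inhibitor's rises and 24.8% of rosiglitazone's, and 24 of them stand in the adipocyte list. Both lowered 152 genes, 15.4% and 22% of the respective falls. In opposite directions, 142 genes rose with the inhibitor and fell with rosiglitazone, 12% of the inhibitor's rises and 20.5% of rosiglitazone's falls. The reverse held for 72 genes, 7.28% of the inhibitor's falls and 6.88% of rosiglitazone's rises. Over all genes tested 8.98% rose and 7.52% fell with the inhibitor. Line, agent and base level all differ between the comparisons and cannot be told apart.

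Single genes outside the standard lists showed each pattern. Trarg1 rose in both, in MTΔECad cells from 2.09 and 1.94 CPM to 144 and 116 CPM (6.01 ± 0.17). Pappa2 and Igf2 also rose, by 1.32 ± 0.35 and 0.70 ± 0.18. Rarb and Wnt10a fell with rosiglitazone too, by 1.56 ± 0.20 and 0.57 ± 0.14, Wnt10a there from 17.5 and 17.8 to 12.1 and 11.6 CPM. Rdh10 and Aspa, which fell with the inhibitor, rose with rosiglitazone, by 0.56 ± 0.08 and 0.82 ± 0.12. Itga8 and Timp3 rose with the inhibitor and were not called with rosiglitazone (0.12 ± 0.07 and -0.20 ± 0.07, adjusted p = 0.336 and 0.0819), and whether the responses differ was not tested.

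**Figure D5:**
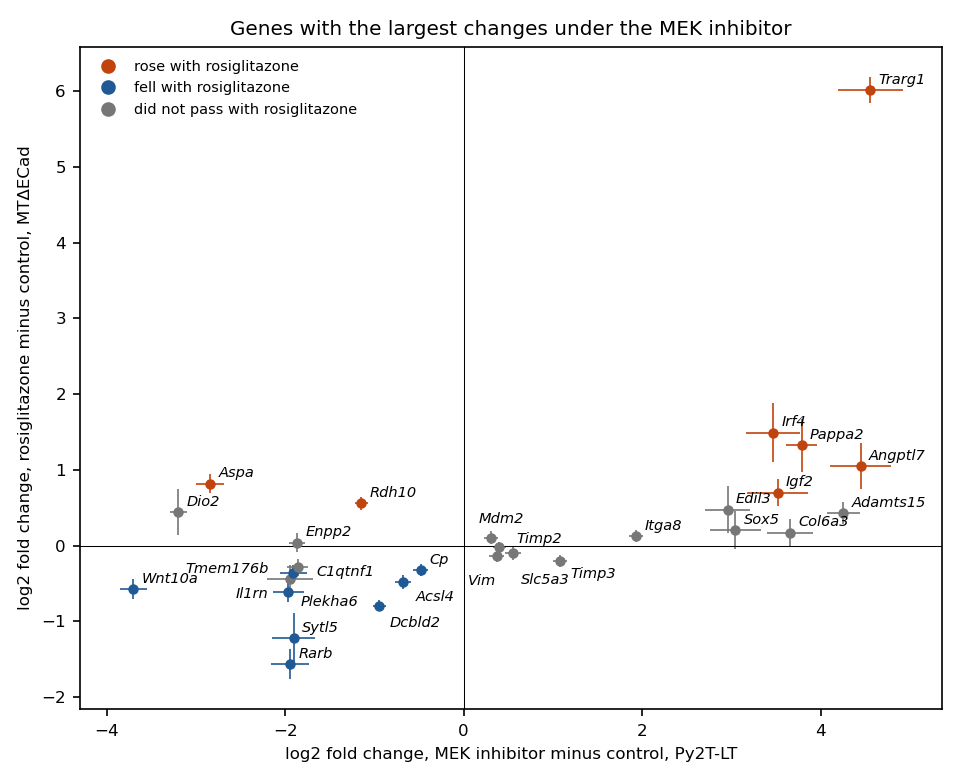
Log2 fold change with rosiglitazone in MTΔECad cells (vertical axis) against that with the inhibitor in Py2T-LT cells (horizontal axis), with standard errors as bars, for 29 genes named for the size of their change in fold or CPM that reach at least 1 CPM in MTΔECad cells. Trarg1 lies at the upper right, Rarb at the lower left, and Rdh10 and Aspa at the upper left.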

How the data were processed

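RNA was sequenced from 10 mouse cell culture libraries, 2 independent experiments for each of 5 groups, per the labels. The authors deposited 1 table of raw counts per gene under NCBI Gene identifiers. STAR and the build mm10 are named in the submitters' processing notes; the counting tool, its strand setting and its treatment of reads with several matches are not given in any source used here. Of 18103 identifiers 18057 matched RefSeq (GRCm38.p6), 3 matched GENCODE and 43 matched neither; these 43 stayed in the tests.

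All 10 libraries entered 1 fit in edgeR 4.0.16 (R 4.3.3): filterByExpr, which kept 13149 genes, TMM scaling, 1 mean per group and a robust quasi-likelihood fit with 5 residual degrees of freedom. Inhibitor minus control was the contrast of interest; BMP2 with inhibitor minus inhibitor, and rosiglitazone minus control in MTΔECad cells, came from the same fit. CPM use the TMM-scaled totals and no pseudocount. The common biological coefficient of variation was 7.07%. Where a group held under 10 counts the ratio of scaled counts is given with an exact 95% counting interval, or a bound against 3 counts per library where it held none (at most 0.21 CPM). Intervals and bounds cover counting error only. The pipeline was tested on simulated counts with known changes.

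Named genes were the 15 largest rises and falls with at least 5 CPM in the higher group and no overlap, outside the 3 standard lists; the 6 largest gains and losses in CPM; and in each list described up to 6 called members with the largest fold and up to 3 uncalled members of highest level, with at most 4 examples from a standard list. A few genes that the rule names are not reported here. Other genes are said to have been chosen after their values were seen. The members, the 72 gene lists and the rules were chosen with earlier results of these data known. Alternatives were DESeq2 1.42.0, its size factors in edgeR, no filter, only the compared groups, a replicate block, a threshold of 0.01 and leaving out each library.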

Additional observations from a re-analysis of the deposited data

How the results depend on the processing

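The 2170 genes changed by the inhibitor, 1181 higher and 989 lower, numbered 2154 with DESeq2's size factors, 2574 without the count filter, 1727 by DESeq2 and 1905 with only the compared groups fitted. At a threshold of 0.01 they fell to 1379, 771 higher and 608 lower, and the 1737 genes of rosiglitazone to 1116. Leaving out 1 library gave 1448 to 2170 in all, 797 to 1012 higher and 593 to 1158 lower; the lower count was 651 without control replicate 2, 658 without inhibitor replicate 1 and 593 without inhibitor replicate 2. BMP2 with the inhibitor against the inhibitor alone kept 3837 to 4005 of 4908 calls in number, and rosiglitazone 1112 to 1338, the lowest without its control replicate 1.

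Same-numbered libraries did not deviate together, with correlations of -0.203 to 0.223 and 0.166 for the compared groups. The fit with the replicate number as a block called 2245 genes, 1222 higher and 1023 lower, and 5024 and 1833 in the other comparisons; of the genes with a value it did not call Lama5 (adjusted p = 0.075) and Rps6ka3 (0.059), called Wnt5b (0.032) and changed no other call. Of the 179 named genes that were called, 162 were called in every alternative at 0.05, and none reversed. Of 1278 list counts 184 moved by over 1.5 times. With 2 libraries a group, small steps in low genes are limited by depth and spread.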

Other observations

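Some gene groups outside the comparisons above also held changed genes. In the mammary luminal list 2 of 9 tested genes rose and 3 fell, with 1, 1, 2 and 2 rises and 2, 1, 1 and 2 falls when 1 library was left out, in the order used above. Xdh, an enzyme of purine breakdown that also coats milk fat, rose by 0.66 ± 0.07, from 253 and 260.4 to 396 and 415 CPM. Genes of bone and cartilage rose in 5 of 14 cases, and none fell, with 5, 3, 4 and 5 rises and 2, 0, 0 and 0 falls without 1 library. Mgp, an inhibitor of calcification, rose by 0.89 ± 0.08, from 287 and 246 to 506 and 478 CPM, and Alpl, the alkaline phosphatase of mineralising tissue, by 0.77 ± 0.15, from 7.27 and 8.00 to 14.99 and 11.2 CPM. Among neural and glial markers S100b, a calcium-binding protein, fell by 1.28 ± 0.15, from 34.4 and 32.2 to 13.96 and 13.5 CPM, and Syt1, a calcium sensor of secretory vesicles, rose by 0.87 ± 0.14, from 15.8 and 11.9 to 26.0 and 24.6 CPM. The summed level of that list was 224 and 258 CPM in controls and 217 and 220 CPM with the inhibitor, and Rbfox3 and Dcx, defining genes of neurons, had no count in the 4 libraries.

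Enzymes of DNA methylation and chromatin rose in 2 and fell in 2 of 37 cases, with 2, 2, 1 and 1 rises and 5, 1, 1 and 1 falls without 1 library, below the share over all genes. Tet2, which oxidises methylated cytosine, fell by 0.58 ± 0.09, from 116 and 139 to 84.0 and 87.2 CPM, and Uhrf1, which maintains methylation after replication, rose by 0.54 ± 0.09, from 54.6 and 53.4 to 83.9 and 72.7 CPM. In cytokine receptor signalling Ghr, the growth hormone receptor gene, fell by 0.38 ± 0.08, from 270.5 and 304 to 213 and 228 CPM, and Jak2, the kinase it uses, by 0.44 ± 0.09, from 189 and 204 to 131 and 159 CPM.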
